A study of Mus musculus with 28 samples.

Results

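The genes described here are the LIF and STAT3 pathway genes *Lifr*, *Il6st*, *Jak1*, *Stat3*, *Socs3*, *Pim1*, *Bcl3* and *Gbx2*, 8 of the 22367 protein-coding genes of the GENCODE vM1 annotation of mm9. They were chosen by name, and each was examined over a window of its gene body plus 20 kb on each side. The windows spanned 44.0 to 153 kb, with a median of 63.1 kb, against a median of 55.4 kb over all genes. The cells were HATX mouse embryonic stem cells (mESCs), in which doxycycline can induce *Xist*, and were profiled by chromatin immunoprecipitation sequencing (ChIP-seq). WT cells were compared with *Spen* knockout cells (*Spen* KO) from which most of *Spen*, encoding an RNA-binding repressor, had been deleted. Only clone 2 of the knockout was profiled, so clone and genotype cannot be told apart. Both lines were of mixed genomic background, were grown on gelatin in serum with LIF, and were fixed with formaldehyde, and no doxycycline treatment is named in the labels of these samples. There were 16 ChIP and 12 input libraries. The 10 deposited lists were 1 per genotype for each of H3K27Ac (active promoters and enhancers), H3K4me3 (active promoters) and H3K9me3 (silenced chromatin), and 1 per library for the transcription factor Oct4. Read depth is unknown. No test between genotypes was made on the histone lists, since each mark had 1 list per genotype and read counts were not analysed. The exact permutation test of 2 against 2 library values, used for Oct4, cannot give a p below 0.333. The authors describe the 2 libraries of a group as technical replicates, so their spread may not cover that between cultures.

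LIF is the cytokine that keeps mESCs in self-renewal. It binds the receptor chain encoded by *Lifr*, which pairs with gp130, encoded by *Il6st*. The receptor-bound kinase *Jak1* then phosphorylates *Stat3*, which enters the nucleus and switches on target genes through sites of the form TTCNNNGAA. *Socs3*, a feedback inhibitor of the receptor complex, the kinase *Pim1*, the nuclear IκB family protein *Bcl3* and the homeobox factor *Gbx2* are all known STAT3 targets, the latter 3 with known roles in self-renewal.

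Peaks were placed relative to the transcription start sites (TSSs) of protein-coding transcripts. A peak within 1000 bp of a TSS was called a promoter peak, and a peak with no TSS of any protein-coding gene within that distance was called distal. Strength was expressed as the percentile of a peak among all peaks of its list, where 100 is the strongest. H3K27Ac and H3K4me3 peaks carry a score from each library, so that each gave 2 percentiles per genotype. A promoter was called higher or lower in *Spen* KO when the percentiles of the genotypes did not overlap and their means differed by at least 10 points. The map of peaks by distance from the 5′ start shows all 8 windows.

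**Figure D1:**
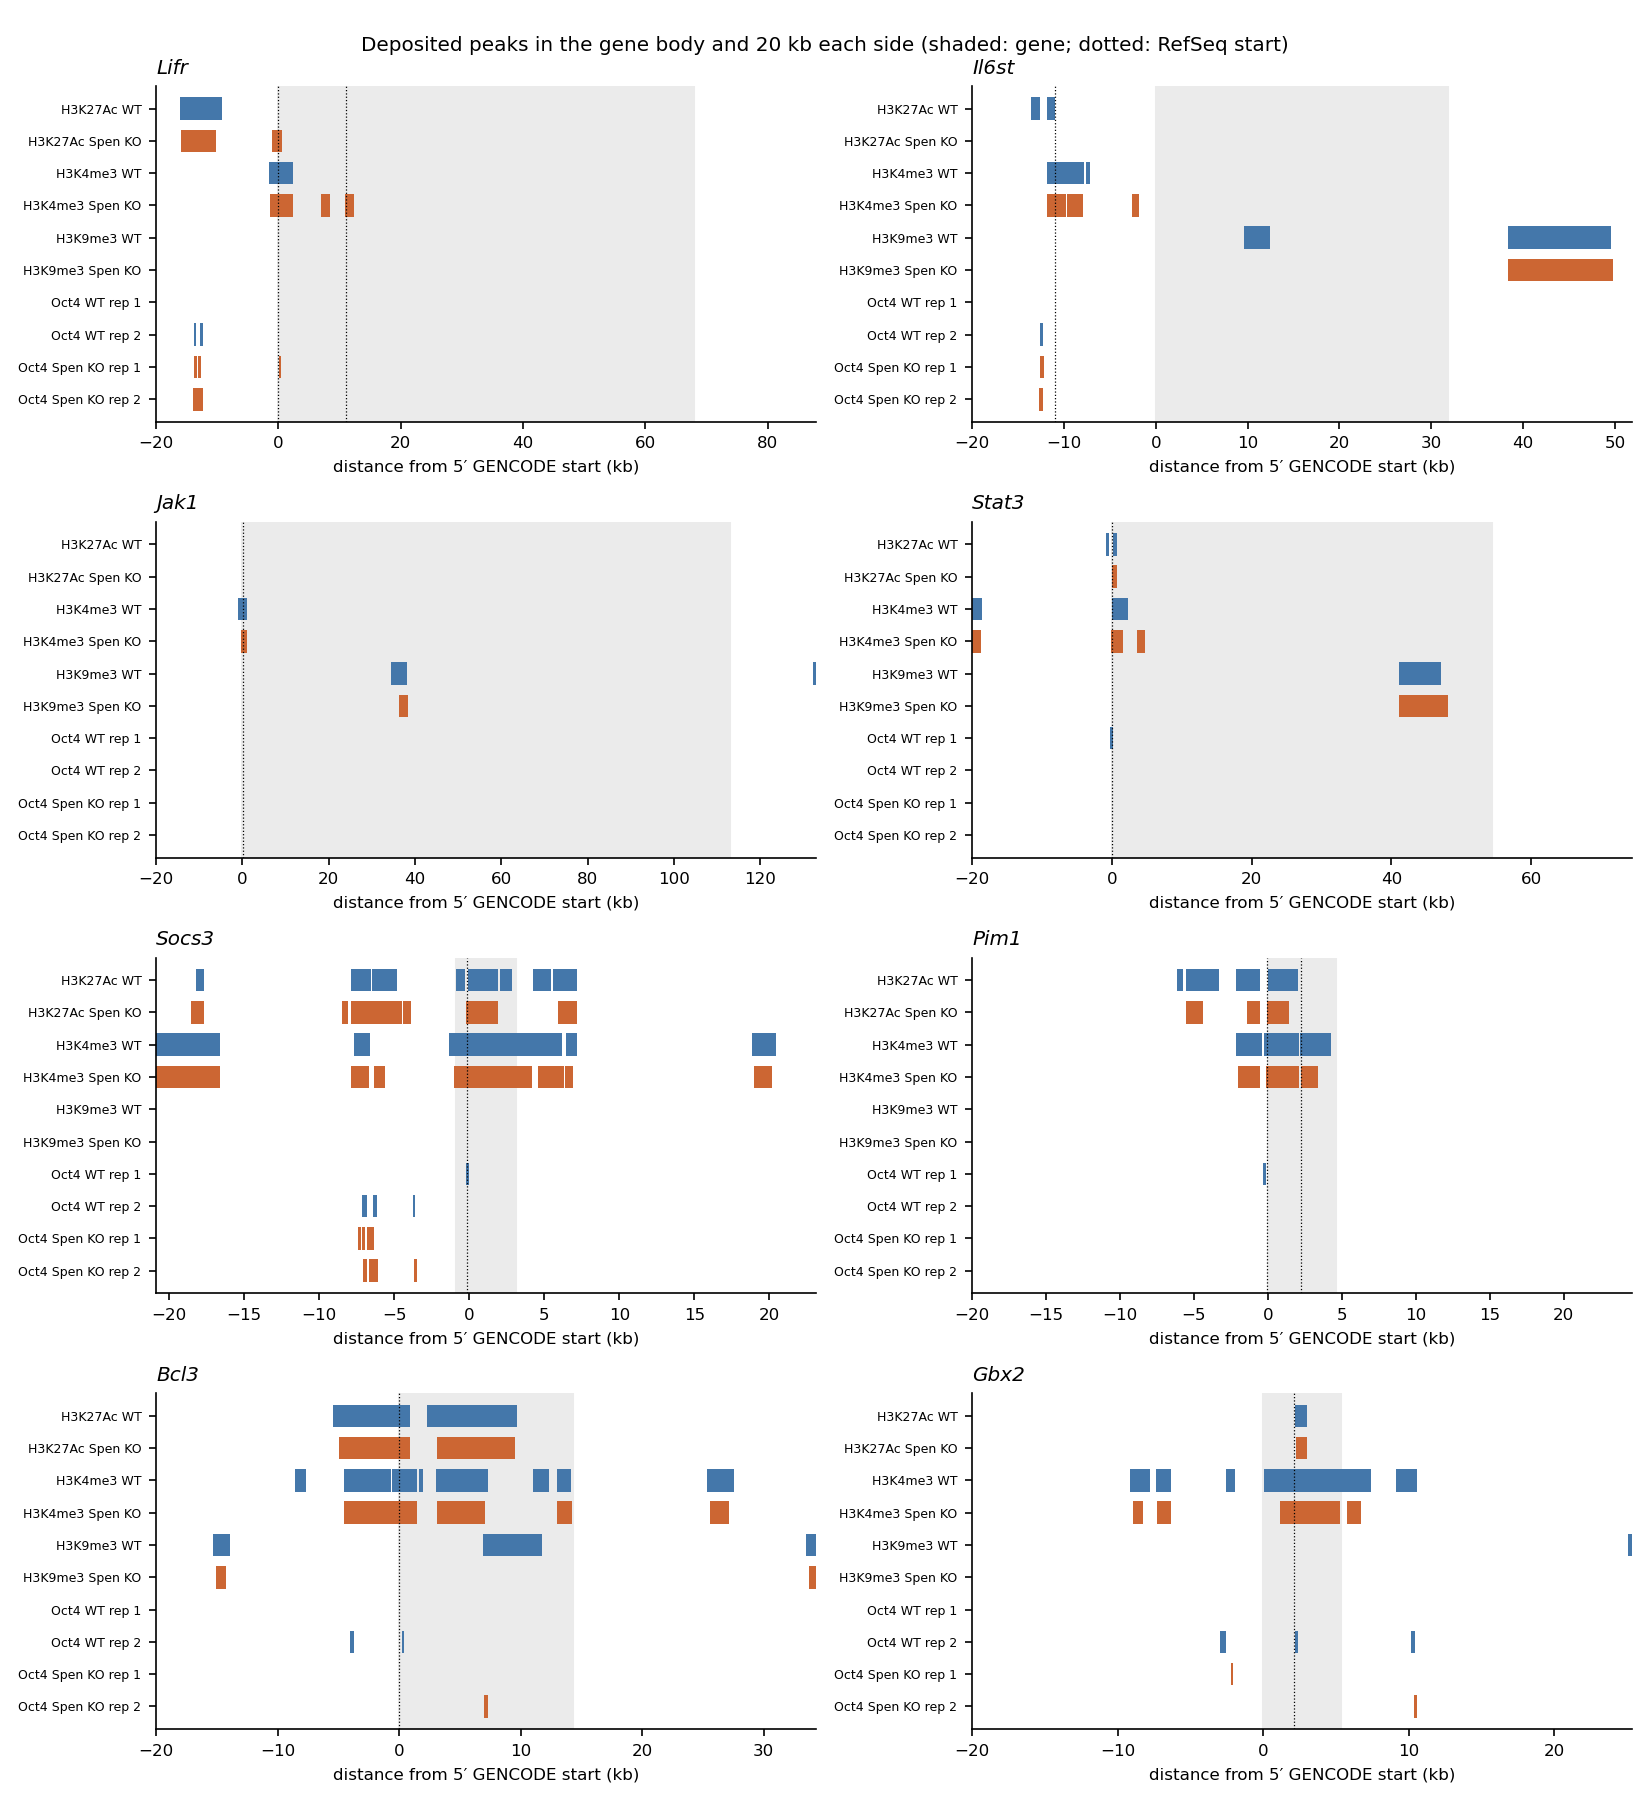
Deposited peaks in the 8 windows, with distance from the 5′ GENCODE start in kb on the x axis and 1 lane per list (WT blue, *Spen* KO orange). Shading marks the gene and dotted lines mark RefSeq starts. *Lifr* has promoter H3K27Ac in *Spen* KO only, *Il6st* has H3K27Ac in WT only at its RefSeq start, and the *Jak1* window has no H3K27Ac or Oct4 peak.

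The labelled cell type was checked first. Of 12 mESC marker genes such as *Pou5f1* and *Nanog*, 12 had a promoter H3K27Ac peak in WT and 11 in *Spen* KO, where that of *Dppa3* was not listed, and 12 had promoter H3K4me3 in both. None of the 15 annotated markers of trophoblast, endoderm, mesoderm, neural cells or fibroblasts had promoter H3K27Ac in either genotype, whereas 14 of them had promoter H3K4me3 in WT and 13 in *Spen* KO, so that H3K4me3 did not separate the cell types. The *Spen* deletion itself cannot be checked from lists of peaks. One Oct4 list stood apart. In WT replicate 1, 73.0% of 1806 peaks lay within 1000 bp of a TSS, against 20.8% of 4111 in WT replicate 2, and 25.7% of 2617 and 20.2% of 3028 in replicates 1 and 2 of *Spen* KO. Oct4 results are therefore given with and without WT replicate 1.

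At the receptor genes, promoter H3K27Ac was listed in opposite genotypes. *Lifr* had promoter H3K27Ac peaks in *Spen* KO and none in WT, while *Il6st* had H3K27Ac at its RefSeq start in WT and none anywhere in its window in *Spen* KO. Both genes had H3K4me3 at their start in both genotypes. Both also had an upstream Oct4 site shared by the *Spen* KO libraries and WT replicate 2.

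*Lifr* (ENSMUSG00000054263.5) lies on the plus strand of chromosome 15 at 7079559 to 7147489. In *Spen* KO, an H3K27Ac peak at 7078588 to 7079461, just upstream of the gene, had percentiles of 67.5 and 71.5 in the first-listed and second-listed library. A weaker peak at 7079531 to 7080107, over the first exon and 5′ UTR, had percentiles of 24.3 and 28.7. The nearest WT peak ended 9.29 kb upstream of the TSS. Of all genes, 960 (4.29%) had promoter H3K27Ac in *Spen* KO alone, against 1 of the 8 members. H3K4me3 over the promoter did not differ in the same way. Its WT percentiles of 41.3 and 95.1 spanned those of *Spen* KO, 60.7 and 69.6. The *Spen* KO list held 3 further H3K4me3 peaks inside the first part of the gene that WT lacked, at 7086605 to 7087502, 7087585 to 7087980 and 7090484 to 7091968. All 3 are intronic, and the third covers a second RefSeq start of *Lifr* at 7090542, which GENCODE vM1 does not list. They were weak, with percentiles between 13.0 and 48.3. The 250 bases upstream of the *Lifr* start, which overlap both promoter H3K27Ac peaks of *Spen* KO and are shown because the genotypes' lists differed there, are 82.8% G and C and hold neither the Oct4 octamer ATGCAAAT nor a STAT site TTCNNNGAA on either strand (mm9, chr15:7079309-7079558, plus strand).
Lifr promoter: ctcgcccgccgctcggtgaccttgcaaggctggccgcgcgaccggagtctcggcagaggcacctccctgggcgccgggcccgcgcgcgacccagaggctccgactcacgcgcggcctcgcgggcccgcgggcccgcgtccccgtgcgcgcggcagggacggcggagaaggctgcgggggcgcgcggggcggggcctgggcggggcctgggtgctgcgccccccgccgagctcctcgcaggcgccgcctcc

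Upstream of *Lifr*, a broad intergenic H3K27Ac peak was among the strongest of both lists. It spanned 7063529 to 7070273 in WT, with percentiles of 95.7 and 99.3, and 7063558 to 7069327 in *Spen* KO, with percentiles of 99.2 and 98.8. It contained the strongest Oct4 site of *Lifr*, at 7065596 to 7067203 and centred 13.2 kb upstream of the start. Its greatest fold enrichment over input was 11.2 and 9.87 in replicates 1 and 2 of *Spen* KO and 7.60 in WT replicate 2, and WT replicate 1 had no peak there. Each of these 3 libraries listed 2 peaks in the site. A second Oct4 peak of *Lifr*, in the 5′ UTR at 0.131 kb, was listed in *Spen* KO replicate 1 only, at 7.48-fold.

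*Il6st* (ENSMUSG00000021756.5) lies on the plus strand of chromosome 13 at 113265216 to 113297068. It was the only member without a promoter peak of either mark by its GENCODE TSS. Its RefSeq start, found by exact sequence match in mm9, lies 10.9 kb further upstream at 113254278, and the peaks of the gene were there. H3K4me3 at this start had percentiles of 92.4 and 91.8 in WT, against 92.1 and 98.9 in *Spen* KO, so both genotypes ranked it among their strong peaks. H3K27Ac was listed in WT alone, at 113253357 to 113254192 with percentiles of 73.7 and 77.1. A second WT-only H3K27Ac peak, at 113251677 to 113252638, had percentiles of 17.5 and 48.7. Both are intergenic by GENCODE. With RefSeq starts, 422 of 13784 matched genes (3.06%) had promoter H3K27Ac in WT alone.

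The Oct4 site of *Il6st*, at 113252514 to 113253062, overlapped the weaker of these WT-only H3K27Ac peaks. Its fold enrichment was 7.42 and 8.00 in replicates 1 and 2 of *Spen* KO and 6.05 in WT replicate 2, with no peak in WT replicate 1. Thus Oct4 was listed beside the RefSeq start in both *Spen* KO libraries, whose H3K27Ac list held no peak in this window. The 250 bases upstream of the RefSeq start, which overlap the stronger WT-only peak, held neither motif (mm9, chr13:113254028-113254277, plus strand).
Il6st promoter: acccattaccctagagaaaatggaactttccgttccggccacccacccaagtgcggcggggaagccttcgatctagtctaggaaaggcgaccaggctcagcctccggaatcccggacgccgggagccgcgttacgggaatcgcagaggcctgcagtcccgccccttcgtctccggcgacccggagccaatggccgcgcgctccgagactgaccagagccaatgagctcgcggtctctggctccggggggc

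The Oct4 octamer was present in each of the 3 sites that the *Spen* KO libraries shared with WT replicate 2, at *Lifr*, *Il6st* and *Socs3*. Over the genome, 698 sites had this combination of libraries, and 92 of them (13.2%) held an octamer. Among the 175 of these that were at least as wide as the narrowest of the 3 (549 bp), 28 (16.0%) did. The octamers were not at the strongest summits. Of the 201 bases centred on the strongest summit of each of these 3 sites, 0 held an octamer, and in the 4 libraries 3.22% to 5.72% of all such summit windows did. The *Lifr* site held 2 octamers, at 7065862 and 7065900, which lay 8 bp from a summit of *Spen* KO replicate 1 and 14 bp from one of WT replicate 2. The former is the summit of an 8.10-fold peak, and that of the 11.2-fold peak of the same library is at 7066843, whereas the latter is the summit of the stronger WT replicate 2 peak, at 7.60-fold. The *Il6st* octamer lay 68 bp from the nearest summit, of *Spen* KO replicate 1, and inside the peaks of both *Spen* KO libraries but outside that of WT replicate 2. The *Socs3* octamer lay 38 bp from a summit of *Spen* KO replicate 1, inside the peaks of that library and of WT replicate 2 but outside those of *Spen* KO replicate 2. So the octamer was within the site, and not within the peak of every library. These 200-base stretches are shown because they carry the octamers, which are in capitals together with 1 STAT site in the *Socs3* stretch. They are on the plus strand of mm9 at chr15:7065766-7065965, chr13:113252680-113252879 and chr11:117837482-117837681.
Lifr upstream site: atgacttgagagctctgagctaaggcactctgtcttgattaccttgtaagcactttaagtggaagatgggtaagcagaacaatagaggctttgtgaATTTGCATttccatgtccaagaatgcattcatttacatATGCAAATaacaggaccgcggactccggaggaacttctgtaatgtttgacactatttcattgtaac
Il6st upstream site: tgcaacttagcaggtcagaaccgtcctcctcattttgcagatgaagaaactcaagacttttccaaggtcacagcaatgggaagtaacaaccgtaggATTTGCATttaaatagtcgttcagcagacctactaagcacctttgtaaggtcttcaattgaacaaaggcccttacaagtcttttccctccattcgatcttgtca
Socs3 upstream site: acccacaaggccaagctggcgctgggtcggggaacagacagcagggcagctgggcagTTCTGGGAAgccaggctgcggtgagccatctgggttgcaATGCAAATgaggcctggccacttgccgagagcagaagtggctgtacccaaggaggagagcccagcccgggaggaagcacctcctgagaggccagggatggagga

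At the signal transducers, H3K27Ac was listed at the *Stat3* promoter and not at all at *Jak1*. *Jak1* (ENSMUSG00000028530.8, minus strand of chromosome 4, 100824972 to 100937887) had no H3K27Ac peak in its window in either genotype. Its promoter H3K4me3 peak had percentiles of 71.4 and 68.0 in WT, against 81.6 and 80.9 in *Spen* KO. It was thus called higher in *Spen* KO, by 11.5 points, with no test. It was the only member called for H3K4me3 in either direction, 1 of 6 with a peak in both lists, where 10.6% of 14149 genes were called higher and 22.3% lower. The call was lost without the second-listed WT library, where *Lifr* and *Stat3* were called higher. Without the first-listed WT library *Socs3* was also called higher and *Lifr* lower, without the first-listed *Spen* KO library *Pim1* was also called lower, and without the second-listed *Spen* KO library *Stat3* was also called higher. The H3K4me3 calls of the members thus varied with the library left out.

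*Stat3* (ENSMUSG00000004040.10, minus strand of chromosome 11, 100746412 to 100800854) had promoter H3K27Ac in both lists. Its percentiles were 55.5 and 77.1 in WT, against 81.0 and 51.1 in *Spen* KO, so the genotypes overlapped. WT alone listed a further promoter peak at 100801249 to 100801754, upstream of the gene, with percentiles of 66.3 and 23.2. Promoter H3K4me3 was strong, at 79.9 and 98.9 in WT, against 99.8 and 97.5 in *Spen* KO, again with overlap. The only Oct4 peak in the *Stat3* window was in WT replicate 1 at 7.12-fold. It was centred 0.087 kb upstream of the start, and its edge reached into the first exon and 5′ UTR.

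The promoter peaks of the target genes *Socs3*, *Pim1* and *Bcl3* ranked high among all H3K27Ac peaks of the WT list, and each ranked lower on average in *Spen* KO. *Socs3* had percentiles of 94.7 and 97.7 in WT, against 87.6 and 90.3 in *Spen* KO. *Pim1* stood at 92.8 and 99.7 in WT, against 84.1 and 91.4 in *Spen* KO, and *Bcl3* at 96.8 and 95.1 in WT, against 85.5 and 80.6 in *Spen* KO. Only *Bcl3* passed the 10-point limit, with a difference of -12.9 points. The WT mean percentiles of *Socs3*, *Pim1* and *Bcl3* were 96.2, 96.2 and 95.9. None of them could rise by 10 points, so only a lower call was possible there. The shares that follow are over genes of any WT rank, and genes of similar WT rank were not compared. A negative difference of any size was found at 51.0% of all 3663 genes. *Pim1* differed by -8.50 and *Socs3* by -7.27 points, and *Stat3* by -0.27. *Bcl3* made 1 of 4 members with promoter H3K27Ac in both lists, where 17.8% of 3663 genes were called lower and 15.9% higher. The median difference was -7.88 points over the 4 members and -0.31 points over all 3663 genes, whose differences had an SD of 19.0 points. *Bcl3* remained called when any 1 library was left out. *Pim1* joined it without the first-listed WT or the second-listed *Spen* KO library, and *Stat3* was called lower without the first-listed and higher without the second-listed *Spen* KO library.

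**Figure D2:**
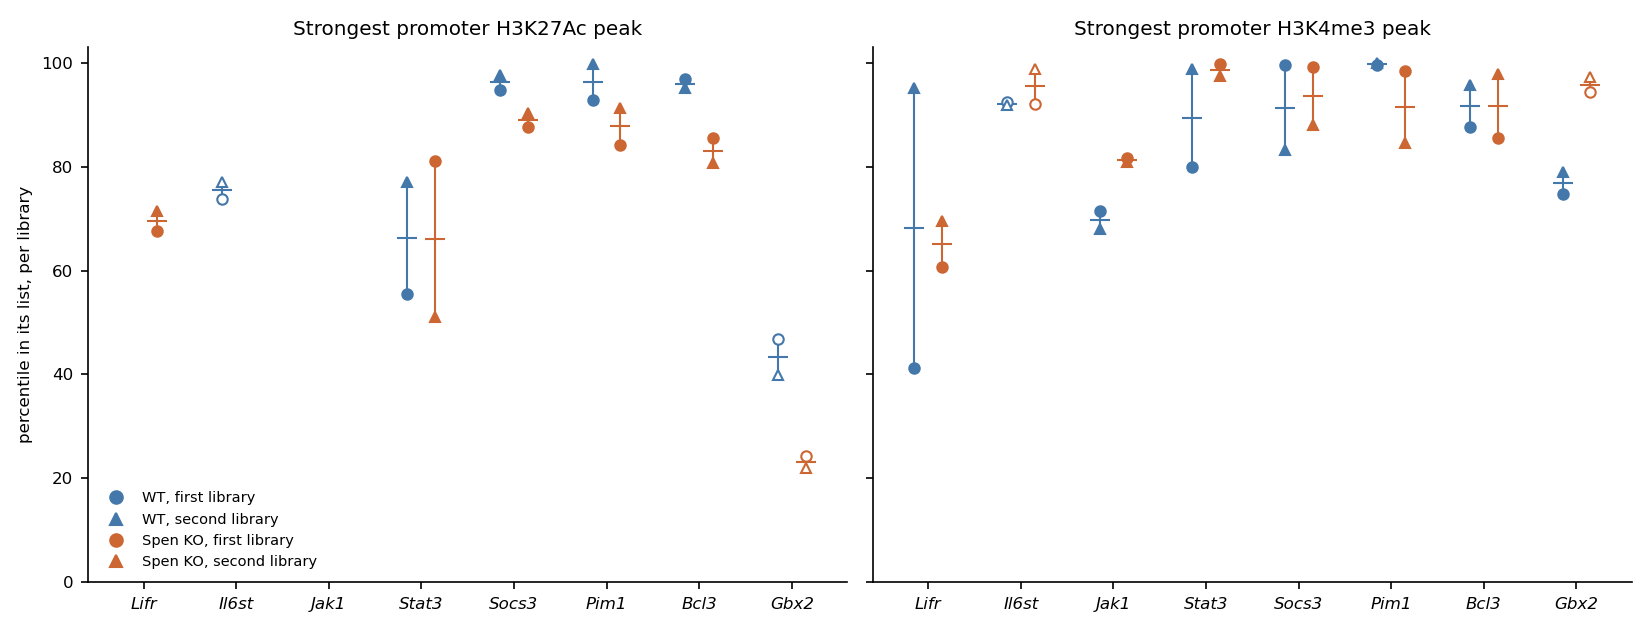
Percentile (y axis, 100 strongest) of the strongest promoter peak of each gene (x axis) in each library, for H3K27Ac (left) and H3K4me3 (right). Circles and triangles are the first-listed and second-listed library, the horizontal bar is their mean, and open symbols are peaks at RefSeq starts of genes without a peak at a GENCODE TSS. By GENCODE TSSs, only *Bcl3* is called lower for H3K27Ac and only *Jak1* higher for H3K4me3.

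**Figure D3:**
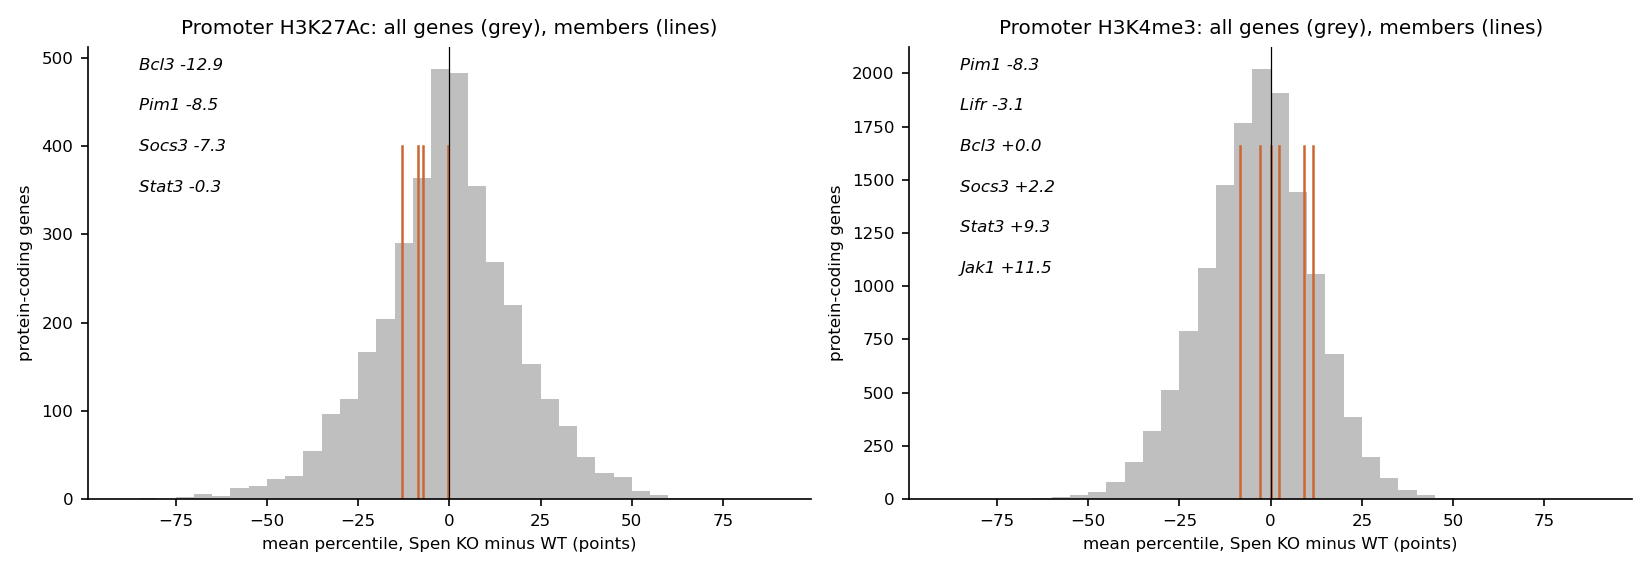
Distribution over all genes of the mean percentile in *Spen* KO minus that in WT (x axis, points) for promoter H3K27Ac (left) and H3K4me3 (right), with the number of genes on the y axis and the members as orange lines. The members lie between -12.9 and 11.5 points.

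H3K4me3 ranked lower in both *Spen* KO libraries at *Pim1*, as H3K27Ac did, and overlapped between genotypes at *Socs3* and *Bcl3*. At *Socs3*, the percentiles were 99.5 and 83.1 in WT, against 99.2 and 88.0 in *Spen* KO, and at *Bcl3* they were 87.6 and 95.8 in WT, against 85.5 and 97.9 in *Spen* KO. *Pim1* had 99.5 and 99.9 in WT, against 98.3 and 84.5 in *Spen* KO. The difference was -8.29 points at *Pim1*, 2.24 at *Socs3* and 0.02 at *Bcl3*. The median over the 6 members was 1.13 points, against -2.98 points over all genes.

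*Socs3* (ENSMUSG00000053113.3, minus strand of chromosome 11, 117827393 to 117831361) had the most H3K27Ac peaks in its window among the members, 8 in WT and 6 in *Spen* KO. In each list, 1 of these was at a TSS of the neighbouring gene *Pgs1* and not of *Socs3*. Besides the shared promoter peak, WT alone listed a promoter peak at 117830815 to 117831369, over an exon upstream of the protein-coding start (percentiles of 62.1 and 27.3), a peak over the 3′ part of the gene at 117827683 to 117828466 (33.8 and 73.0) and an intergenic peak beyond it at 117825044 to 117826279 (24.9 and 63.0). *Spen* KO alone listed 2 weak intergenic peaks upstream, at 117834385 to 117834892 (27 and 25.7) and 117838556 to 117838991 (25.8 and 38.1). These 2 lay on either side of an upstream region that both genotypes marked. That region was a single peak in *Spen* KO, at 117835003 to 117838384 with percentiles of 98.5 and 97.6. In WT it was listed as 2 peaks, at 117835343 to 117836975 (88.1 and 79.1) and 117837013 to 117838352 (78.3 and 88.7). The single *Spen* KO peak thus ranked above both WT peaks in each library. A joined peak was here set against 2 separate ones, and no share of all distal peaks was counted for such a difference. The shared promoter peak ranked higher in WT, but by less than the limit for a call. When peaks within 1000 bp of a peak of the other list were counted as shared, 0 *Spen* KO-only distal peaks were left.

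Oct4 at *Socs3* was found in the same upstream region. The site at 117836556 to 117837644, centred 6.60 kb upstream of the start, had a greatest fold enrichment of 6.72 and 6.93 in replicates 1 and 2 of *Spen* KO and 6.19 in WT replicate 2. The values of these 3 libraries lay close together. A neighbouring site 7.33 kb upstream was listed in *Spen* KO replicate 1 only (5.65-fold), and a site 3.65 kb upstream in *Spen* KO replicate 2 (6.35-fold) and WT replicate 2 (6.19-fold). WT replicate 1 listed none of these, and instead had a peak at the *Socs3* start, at 6.74-fold.

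The *Socs3* promoter was the only member promoter with a STAT site in the 250 bases upstream of a RefSeq start. All 8 members had a RefSeq start matched in mm9, 10 starts in all, and 1 of the 10 windows held the motif, against 7.01% of 30385 such windows in the genome. None held the octamer, which was in 1.61%. A second STAT site lay 61 bases upstream of the GENCODE start of *Socs3* at 117830500, inside the Oct4 peak of WT replicate 1 and, as the RefSeq start is further upstream, downstream of that start. Both are shown on the minus strand with the STAT site in capitals, the first with the whole window (mm9, chr11:117830681-117830930) and the second with 10 bases on each side (chr11:117830543-117830571).
Socs3 promoter: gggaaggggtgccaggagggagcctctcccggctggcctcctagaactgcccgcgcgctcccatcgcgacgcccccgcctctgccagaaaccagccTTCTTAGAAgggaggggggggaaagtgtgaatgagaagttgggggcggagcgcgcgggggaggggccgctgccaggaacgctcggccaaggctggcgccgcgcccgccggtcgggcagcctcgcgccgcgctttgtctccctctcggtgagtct
Socs3 second site: ggccgggcagTTCCAGGAAtcggggggcg

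STAT sites were denser in the members' H3K27Ac peaks as a whole. There were 22 in 40.2 kb of WT peaks, 0.547 per kb, and 18 in 33.0 kb of *Spen* KO peaks, 0.546 per kb. The whole lists held 0.291 per kb in WT and 0.282 per kb in *Spen* KO. The *Socs3* window gave 8 of these sites in WT and 7 in *Spen* KO, and the upstream peak of *Lifr* gave 5 and 4. A motif is only a match of letters, and no STAT3 binding was measured here.

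*Pim1* (ENSMUSG00000024014.6, plus strand of chromosome 17, 29627757 to 29632390) had 4 H3K27Ac peaks in WT and 3 in *Spen* KO. Besides the peak over the start, both genotypes had a promoter peak just upstream, which spanned 29625616 to 29627248 in WT (91.1 and 87.9) and 29626316 to 29627195 in *Spen* KO (73.7 and 69.9). This upstream peak ranked lower in both *Spen* KO libraries than in either WT library. Over all genes, only the strongest promoter peak of each gene was ranked, so no share can be set beside it. A shared distal peak lay 4.43 kb upstream by its WT centre, and a WT-only distal peak at 29621636 to 29622002 (40.2 and 48.7) lay 5.94 kb upstream. Both are within an intron of the gene *Gm16912*. H3K27Ac covered 6.28 kb of the window in WT and 3.47 kb in *Spen* KO. The H3K4me3 peak beside the upstream promoter peak, at 29625634 to 29627344 in WT and 29625727 to 29627229 in *Spen* KO, had percentiles of 81.9 and 79.6 in WT, against 60.1 and 36.3 in *Spen* KO. No share of all genes was counted for such a peak either.

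The *Pim1* start carried an Oct4 peak in WT replicate 1 only, at 29627430 to 29627616 with 7.12-fold enrichment. It held an octamer at 29627466, 75 bp from the summit. Of 1292 sites in the genome listed in WT replicate 1 alone, 16 (1.24%) held one. The 200 bases around it are shown because this was the only octamer in a member's promoter Oct4 peak (mm9, chr17:29627370-29627569, plus strand, octamer in capitals).
Pim1 promoter site: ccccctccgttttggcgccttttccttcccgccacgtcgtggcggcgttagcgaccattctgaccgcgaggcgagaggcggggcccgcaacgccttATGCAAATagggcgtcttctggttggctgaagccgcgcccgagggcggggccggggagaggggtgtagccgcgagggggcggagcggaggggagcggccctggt

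*Bcl3* (ENSMUSG00000053175.9, minus strand of chromosome 7, 20393811 to 20408119) had the widest H3K27Ac of the members, 13.8 kb in WT and 12.2 kb in *Spen* KO. The promoter peak spanned 20407204 to 20413574 in WT and 20407258 to 20413073 in *Spen* KO. A second broad peak inside the gene had percentiles of 80.5 and 84.8 in WT (20398419 to 20405829), between the 95.4 and 76.5 of *Spen* KO (20398589 to 20405018). So the lower rank at *Bcl3* was at the promoter. Oct4 was listed at 3 places in 1 library each, in WT replicate 2 over coding exon sequence near the start (6.34-fold) and 3.88 kb upstream (5.07-fold), and in *Spen* KO replicate 2 in an intron 7.15 kb downstream (5.81-fold). All 3 lay in H3K27Ac peaks of both genotypes. WT also listed 3 weak H3K4me3 peaks that *Spen* KO lacked, over coding exons and an internal TSS at 20395808 to 20397108 (percentiles of 20.2 and 43.6), in an intron at 20406185 to 20406521 (20.2 and 15.8) and upstream at 20415778 to 20416694 (34.0 and 2.75). The 250 bases upstream of the *Bcl3* start, the promoter called lower, are 67.2% G and C and hold neither motif (mm9, chr7:20408120-20408369, minus strand).
Bcl3 promoter: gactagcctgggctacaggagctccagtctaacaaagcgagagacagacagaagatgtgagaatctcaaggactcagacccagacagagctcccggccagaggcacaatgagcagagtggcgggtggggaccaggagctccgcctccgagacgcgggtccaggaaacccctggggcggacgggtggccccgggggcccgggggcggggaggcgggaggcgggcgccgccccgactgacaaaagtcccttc

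*Gbx2* (ENSMUSG00000034486.7, minus strand of chromosome 1, 91824537 to 91829865) had its H3K27Ac inside the gene, near a RefSeq start 2.11 kb downstream of the GENCODE TSS and a TSS of the overlapping gene *D130058E05Rik*. The peak was at 46.8 and 39.9 in WT, against 24.3 and 22.0 in *Spen* KO, 20.1 points apart and without overlap. H3K4me3 ranked in the opposite order. The WT peak, at 91822452 to 91829788, had percentiles of 74.8 and 79.0, and the narrower *Spen* KO peak, at 91824615 to 91828709, had 94.4 and 97.1. By the GENCODE TSS, *Gbx2* counted as having promoter H3K4me3 in WT alone, 1 of the 8 members against 2.04% of genes, but the *Spen* KO peak ended only 1156 bp from that TSS. By its RefSeq start, *Gbx2* had both marks in both genotypes, and was called lower for H3K27Ac and higher for H3K4me3. By RefSeq starts, 2 of 5 ranked members were called lower for H3K27Ac, beside 418 of 2432 genes. For H3K4me3, 2 of 8 members were called higher, beside 1016 of 9236 genes. The calls by RefSeq starts were not repeated with a library left out. WT also listed 2 H3K4me3 peaks in the window that *Spen* KO lacked, at 91831776 to 91832451 and 91819318 to 91820733.

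Oct4 at *Gbx2* was listed at 4 sites. The strongest, 2.77 kb upstream, reached 9.57-fold in WT replicate 2 and was listed in no other library, while *Spen* KO replicate 1 had a weaker peak (5.08-fold) 2.17 kb upstream. A site 10.3 kb downstream of the start was shared by WT replicate 2 (6.34-fold) and *Spen* KO replicate 2 (7.09-fold). The fourth, near the RefSeq start, was in WT replicate 2 only (5.07-fold).

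Counted over the members by GENCODE TSSs, promoter H3K27Ac was present at 4 in WT and 5 in *Spen* KO, where 19.3% and 20.7% of all genes had it. No member had it in WT alone, against 2.89% of genes. Promoter H3K4me3 was present at 7 members in WT and 6 in *Spen* KO, against 65.3% and 63.8% of genes, and at none in *Spen* KO alone, against 0.559%. With RefSeq starts, an alternative chosen after the *Il6st* peaks had been seen, H3K27Ac was at 6 members in each genotype and H3K4me3 at all 8. Of 13784 matched genes, 20.7% in WT and 22.4% in *Spen* KO had promoter H3K27Ac, and 69.0% and 67.6% had promoter H3K4me3. By RefSeq starts, all members thus carried promoter H3K4me3 in both genotypes. By the same starts, promoter H3K27Ac was listed in 1 genotype alone at *Lifr* and *Il6st*, and a rank call was made at *Jak1*, *Bcl3* and *Gbx2*. The *Jak1* call was lost without the second-listed WT library, and the *Gbx2* calls were not repeated with a library left out. Rank calls were common over all genes by GENCODE TSSs. For H3K27Ac, 17.8% of ranked genes were called lower and 15.9% higher, and for H3K4me3 22.3% and 10.6%. With RefSeq starts, 418 of 2432 ranked genes were called lower for H3K27Ac, and 1016 of 9236 higher for H3K4me3. The share of all genes with any of these differences was not counted, so no excess among the members can be read from them.

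Distal H3K27Ac peaks numbered 11 in WT and 7 in *Spen* KO over the 8 windows. They were in 5 windows in WT (*Lifr*, *Il6st*, *Socs3*, *Pim1* and *Bcl3*) and in 4 in *Spen* KO, where *Il6st* had none, against 22.9% and 17.8% of all gene windows. WT-only distal peaks numbered 5, in the windows of *Il6st*, *Socs3* and *Pim1*, and 16.2% of all windows held such a peak. They include the *Il6st* peak at 113253357 to 113254192. It is distal by GENCODE only, and by RefSeq starts it is the promoter peak described above. The 2 *Spen* KO-only distal peaks were both at *Socs3*, and 8.18% of all windows held one. The WT list is the longer, with 13922 peaks against 11932, and with both cut to equal length these 4 counts were the same. Of the H3K27Ac peaks in member windows, 35% in WT and 25% in *Spen* KO were found in 1 genotype, against 39.8% and 29.4% of the whole lists. For H3K4me3, these shares were 22.2% and 19.4%, against 23.2% and 9.49% of the whole lists.

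**Figure D4:**
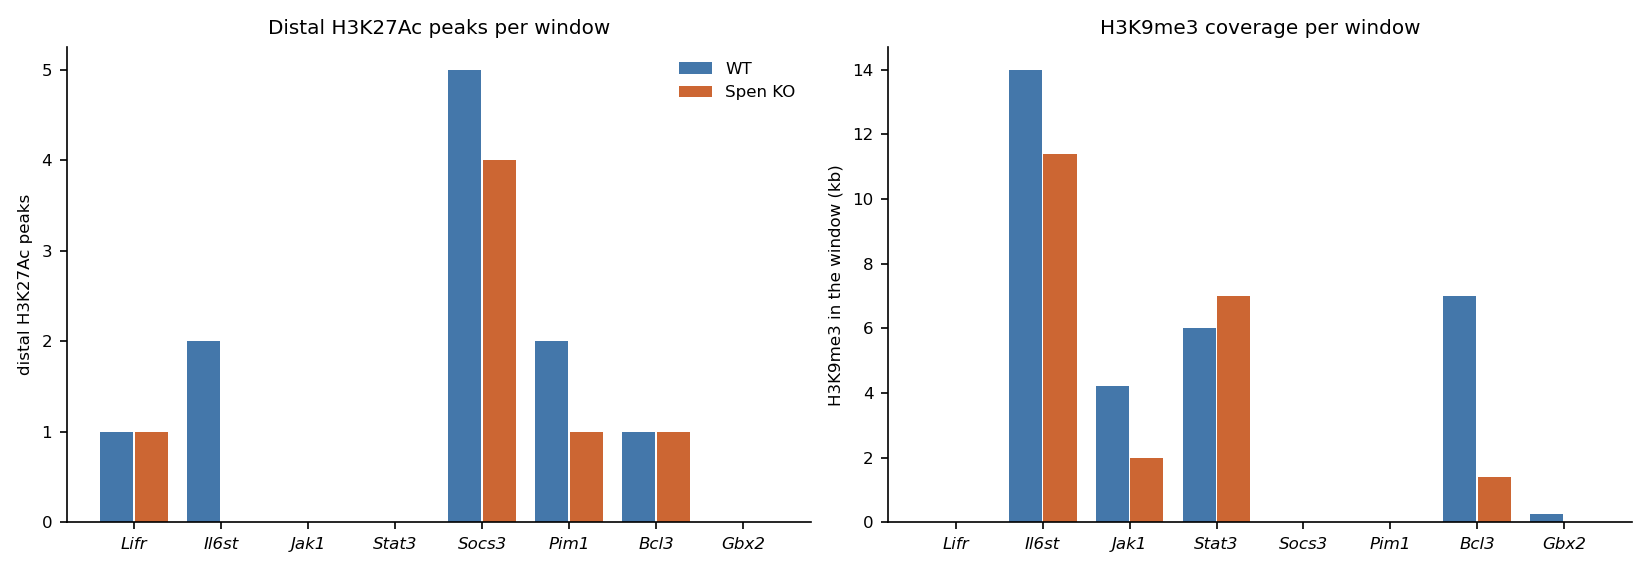
Number of distal H3K27Ac peaks (left) and kb covered by H3K9me3 (right) in the window of each gene, for WT (blue) and *Spen* KO (orange), from 1 list per genotype and without error bars. *Il6st* has 2 distal H3K27Ac peaks in WT, including the peak at its RefSeq start, and 0 in *Spen* KO. *Bcl3* has 6.99 kb of H3K9me3 in WT and 1.39 kb in *Spen* KO.

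H3K9me3 was sparse around the members, although the *Spen* KO list was the longer, with 70268 domains against 53745. It covered 31.5 kb (5.12%) of the windows in WT and 21.8 kb (3.54%) in *Spen* KO. The median coverage per window was 1.67% in WT and 0.65% in *Spen* KO, against 4.22% and 3.41% over all genes. It touched 5 windows in WT and 4 in *Spen* KO, where 58.9% and 58.9% of all windows were touched, and was absent from the *Lifr*, *Socs3* and *Pim1* windows in both genotypes. A domain over the neighbouring gene *Il31ra*, beyond the 3′ end of *Il6st*, was shared (11.2 kb in WT and 11.4 kb in *Spen* KO). A WT domain of 15 kb over *Raver2* reached into the edge of the *Jak1* window. At *Gbx2*, the window touched in WT alone, a WT domain at 91801601 to 91804800 covered only 0.264 kb of the window. Both of these WT domains overlapped a *Spen* KO domain that did not reach the window. Among the stronger 50% of each list, the order of the genotypes turned, with 11.8 kb in WT and 18.4 kb in *Spen* KO.

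Inside the members, H3K9me3 was listed at 4 places. A WT-only domain of 2.8 kb lay in an intron of *Il6st* (113274801 to 113277600), at the 23.8 percentile of its list. A WT-only domain of 4.8 kb lay over exons and introns of *Bcl3* (20396401 to 20401200), at the 22.8 percentile. It covered an internal TSS of *Bcl3* and overlapped the broad H3K27Ac peak inside the gene. Both were weak domains of the WT list. In the 3′ part of *Stat3*, a domain was shared, 6 kb in WT and 7 kb in *Spen* KO, at the 22.6 and 72.9 percentiles. A shared domain in an intron of *Jak1* was 3.6 kb in WT (27.2 percentile) and 2 kb in *Spen* KO (31.2 percentile). How many libraries each H3K9me3 list rests on is not stated, so these values have no error.

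Over the 8 windows, the Oct4 lists held 3 peaks in WT replicate 1, 11 in WT replicate 2, and 8 in each *Spen* KO library. The mean was 7 ± 5.66 in WT and 8 ± 0 in *Spen* KO (SD, n = 2; exact two-sided permutation test, p = 1). Members with an Oct4 peak numbered 3 and 5 in WT, against 4 and 5 in *Spen* KO (exact permutation p = 1). These were *Stat3*, *Socs3* and *Pim1* in WT replicate 1, and *Lifr*, *Il6st*, *Socs3*, *Bcl3* and *Gbx2* in both WT replicate 2 and *Spen* KO replicate 2, while *Spen* KO replicate 1 lacked *Bcl3*. The share of each Oct4 list that lay in the members' windows was 0.166% and 0.268% in WT, against 0.306% and 0.264% in *Spen* KO (exact permutation p = 0.667). The smallest p that 2 against 2 libraries allow is 0.333, so no difference could have passed a threshold of 0.05. Of all gene windows, 13.2% and 14.2% held a peak in replicates 1 and 2 of WT, and 10.6% and 11.6% in those of *Spen* KO. Without WT replicate 1, *Spen* KO had 3 fewer peaks than WT on average (11 against 8 and 8, exact permutation p = 0.333, the smallest possible), a turn in direction. The difference in members with a peak also turned, from 0.5 to -0.5, and that in the share of the list went from 0.0681 to 0.0174 percentage points (exact permutation p = 1 for both).

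**Figure D5:**
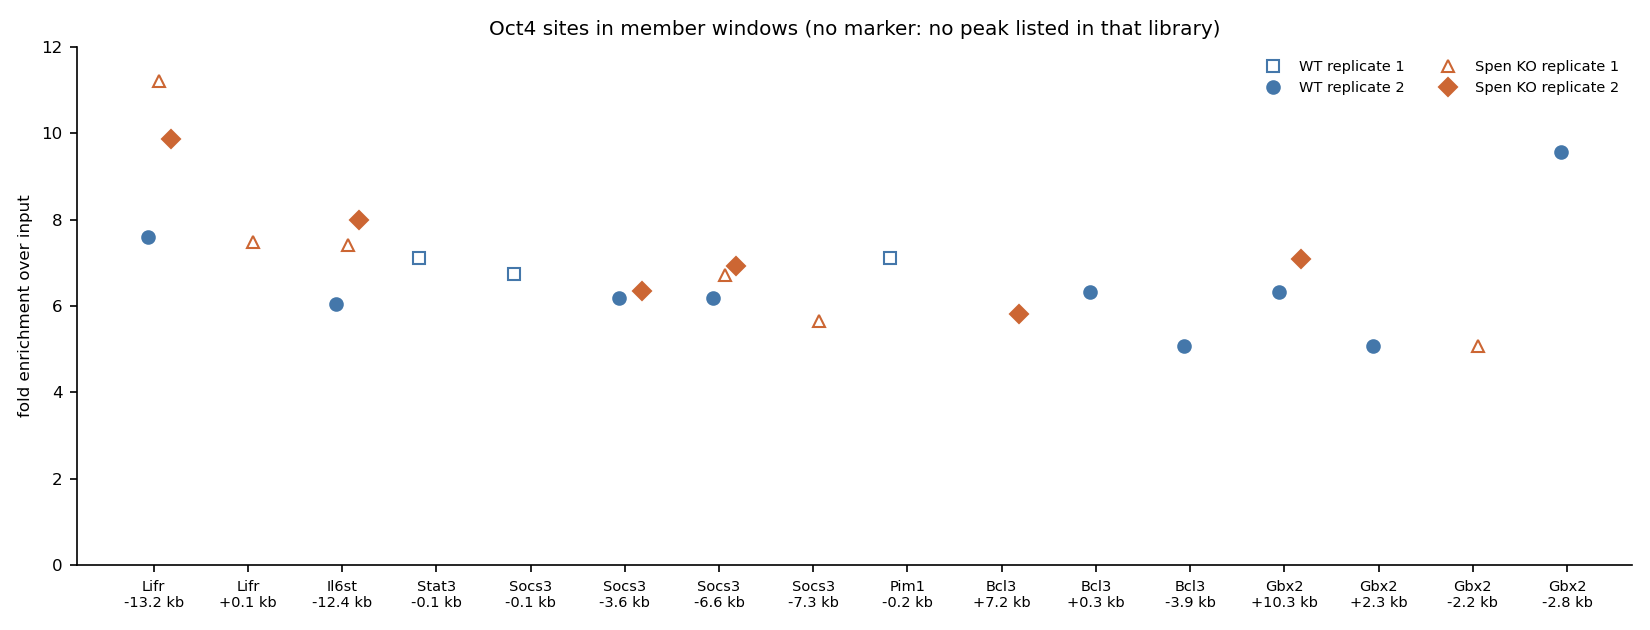
Fold enrichment over input (y axis) of Oct4 at each site in the members' windows (x axis, gene and distance of the site's centre from the 5′ GENCODE start), with 1 marker per library that listed a peak. The 3 promoter peaks of WT replicate 1 (squares) coincide with no peak of another library, and the upstream sites of *Lifr*, *Il6st* and *Socs3* are shared by the other 3 libraries.

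The 30 Oct4 peaks merged into 16 sites, of which 11 were listed in 1 library, 2 in 2 and 3 in 3. None was listed in both WT libraries. All 3 sites found in both *Spen* KO libraries were also in WT replicate 2, and they were the upstream sites of *Lifr*, *Il6st* and *Socs3*. At these, the greatest fold enrichment within the site was higher in each *Spen* KO library than in WT replicate 2, though close at *Socs3* (6.72 and 6.93 against 6.19). These values come from different summits. At *Lifr*, the 7.60-fold WT summit at 7065917 lay near an 8.10-fold summit of *Spen* KO replicate 1 at 7065857. Near the 11.2-fold summit of *Spen* KO replicate 1 at 7066843, WT replicate 2 had 6.19-fold. How many of the 698 genome sites with this combination of libraries had the same order was not counted. The libraries' depth is unknown, so a general offset between them was not tested. At the 3 member sites, WT had a peak in 1 library only, so that no spread within WT is known. *Jak1* was the only member whose window held no Oct4 peak in any library.

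Of 34 signalling genes that are not members, 14 had promoter H3K27Ac in WT and 11 in *Spen* KO. It was listed in WT alone at *Ptpn6*, *Pias4*, *Socs6*, *Grb2* and *Mapk3*, and in *Spen* KO alone at *Pias1* and *Socs4*. H3K4me3 was at 33 of these 34 promoters in both genotypes. Of these 33, 5 were called higher, among them *Cish*, *Map2k2*, *Pias2* and *Socs4*, and 7 lower, among them *Stat6* (-45.9 points), *Cntfr* (-31.3), *Ptpn2* (-17.7) and *Pias3* (-13.1), where 10.6% of all genes were called higher and 22.3% lower. The median H3K4me3 difference was -6.12 points for these genes, and the median H3K27Ac difference was 1.79 points for the 9 with an H3K27Ac peak in both genotypes.

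Of 9 further STAT3 target genes in the annotation, 7 had promoter H3K27Ac in WT and 8 in *Spen* KO, where *Icam1*, a cell adhesion molecule, was added. *Myc* was called lower by -35.7 points, from percentiles of 46.8 and 80.6 in WT to 20.2 and 35.8 in *Spen* KO. *Klf5*, a pluripotency factor, was called lower by -12.8 points, and *Junb* higher by 17.2. These are 2 lower and 1 higher of 7 genes, beside 17.8% lower and 15.9% higher of all genes. H3K4me3 was at all 9 promoters in both genotypes, and only *Icam1* was called, higher by 16.4 points. The medians were -5.29 points for H3K27Ac and -1.54 for H3K4me3. None of these calls was tested, and the lists were chosen with earlier results of these data known.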

How the data were processed

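Peak lists from ChIP-seq of WT and *Spen* KO mESCs were analysed, and all 28 samples were grouped by their labels. For histone marks, the authors kept uniquely mapped read pairs (Bowtie2, mm9) without duplicates (Picard), and called peaks over input at a MACS2 q-value of 0.01. The deposited H3K27Ac and H3K4me3 lists hold a score for each library and an irreproducible discovery rate (IDR), limited by the authors to 0.05. Which MACS2 column the score is, and which replicate comes first, is not stated, hence "first-listed" and "second-listed". As IDR keeps peaks on which libraries agree, the spread between them is understated. The deposited H3K9me3 lists hold 1 score per domain of joined 200 bp windows, made by steps not given in the sources used here. The deposited Oct4 lists hold, per library, the fold enrichment ratio over input and the −log10 q-value. Reads and input signal were not analysed here, so depth is unknown, no count test was made, and an unlisted peak may lie just under a threshold.

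Overlaps, percentiles and exact two-sided permutation tests were computed with Python 3.11.15, numpy 2.4.6 and scipy 1.17.1. A peak that overlapped nothing in the other genotype's list by at least 1 base counted as found in 1 genotype. The rank call was tested on simulated data only. The simulated libraries of a genotype differed far less than many of the real ones, so its error rate in these data is unknown. Genes came from GENCODE vM1. Of 32851 RefSeq promoter sequences (250 bases before to 50 after each start, GRCm38.p6), 30429 (92.6%) matched once in mm9, and all sequences shown were read from mm9. Motifs were searched on both strands. *Tfcp2l1*, *Tfap2c* and *Sox1* of the gene lists were not matched by symbol. All members were named with their promoter peaks, 1-genotype distal H3K27Ac peaks and Oct4 peaks, and from each pathway list genes with a promoter peak in 1 genotype or called, at most 5 each. Some genes of these lists are not reported here by name. The members and lists were chosen with earlier results of these data known, and RefSeq starts were added as an alternative after the data had been examined.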

Additional observations from a re-analysis of the deposited data

How the results depend on the processing

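The numbers of members with a promoter H3K27Ac or H3K4me3 peak stayed within 1.5 times of their values under each alternative tried (promoters of 500 or 2000 bp, lists of equal length, the stronger 50% of every list, RefSeq starts). The rank calls moved more. A limit of 20 points left 0 members called lower for H3K27Ac and 0 called higher for H3K4me3, RefSeq starts gave 2 of each, promoters of 2000 bp gave 2 higher for H3K4me3, and ranking by the mean score gave 1 lower for H3K4me3. Leaving out 1 library gave 0 to 1 higher and 1 to 2 lower members for H3K27Ac, and 1 to 2 higher and 0 to 1 lower for H3K4me3. Distal H3K27Ac peaks numbered 33 in WT, 21 in *Spen* KO and 15 WT-only with 50 kb on each side, and 7, 4, 2 and 0 (*Spen* KO-only) in the stronger 50% of the lists. With 10 kb, 3 were WT-only, and counting peaks within 1000 bp as shared left 2 WT-only and 0 *Spen* KO-only. H3K9me3 covered 20.7 kb in WT and 12.5 kb in *Spen* KO with 10 kb on each side and 82.1 and 66.7 kb with 50 kb, and 11.8 kb in WT against 18.4 kb in *Spen* KO for the stronger 50%, which turned the order of the genotypes. *Spen* KO minus WT, the Oct4 differences of 1 peak, 0.5 members and 0.0681 percentage points turned to -0.5 peaks and -0.00226 points with 10 kb on each side, and leaving out 1 library gave -3 to 5 peaks, -0.5 to 1.5 members and 0.0174 to 0.119 points. The replicate numbers are not known to pair Oct4 libraries (r = 0.02 between deviations of same-numbered libraries across 22367 gene windows), and with the replicate number as a block the differences were 1 peak, 0.5 members and 0.0681 points (exact permutation p = 1 for each, the smallest possible being 0.5).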
